A study of Mus musculus with 58 samples.

Results

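The rows of the 3 uncoupling proteins Ucp1, Ucp2 and Ucp3 were taken by gene symbol from a table of 11603 expressed mRNA rows of mouse fat cells, and each symbol had 1 row. Uncoupling proteins are carriers of the inner mitochondrial membrane. Ucp1 lets protons flow back into the matrix without ATP synthesis when fatty acids activate it, so that respiration gives off heat, and it is the defining protein of brown and beige fat. Ucp2 is found in many tissues, among them immune cells, and has been tied to four-carbon metabolite export and to the handling of reactive oxygen. Ucp3 belongs mainly to skeletal muscle and brown fat and is linked to fatty acid metabolism.

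The libraries held RNA bound to tagged ribosomes (TRAP, translating ribosome affinity purification), pulled out of whole fat tissue of C57BL/6J mice with an antibody to GFP, depleted of ribosomal RNA and sequenced. Mice on standard chow were housed at 23 °C. Cold brown libraries (n = 5) came from interscapular brown fat and cold beige libraries (n = 4) from inguinal fat after 1 week at 4 °C. Warm brown (n = 5) and warm beige (n = 3) libraries came from the same depots of mice that went from that cold exposure to 30 °C for 4 weeks. Warm white libraries (n = 5) represent the inguinal fat of mice that lived at 30 °C from birth on and never met the cold. According to the labels 2 lines were used, Ucp1-NuTRAP and Adipoq-NuTRAP, in which tagging depends on the promoter of Ucp1 or of the adipocyte gene Adipoq. Neither the line of each library nor the age of the mice is given. A tag that depends on the Ucp1 promoter marks only cells in which that promoter has been active. The study held 58 samples in all, of which 36 chromatin samples were not analysed here.

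Values are log2 CPM, reads of a gene scaled to the size of its library. Their antilogs summed to between 859198 and 1104362 CPM per library, and the depth in reads is unknown. Each library is called a biological replicate, with nothing on which animals it came from. The p-values therefore measure the spread between these libraries as deposited. From these values a difference between 2 sets of libraries appears to have been removed, as described with the processing. Adipocyte markers (10 of 10 measured) were at or above 12331 summed CPM in every library. Endothelial markers (12 of 12) summed to 54.3 to 216 CPM in the cold brown and 142 to 248 CPM in the warm brown group, to 160 to 404 CPM in the cold beige and 566 to 921 CPM in the warm beige group, and to 48.1 to 79.7 CPM in the warm white group. Fibroblast and preadipocyte markers (13 of 14) summed to 158 to 295, 1006 to 1168, 1709 to 2141, 8187 to 12201 and 12375 to 14868 CPM in that order. The highest member in warm beige and warm white libraries was Gsn, at a mean log2 CPM of 12.43 and 13.19, and it weighs heavily in these sums. Not all members followed the sum: Pdgfra was at 4.43 in cold beige, 4.93 in warm beige and 4.23 in warm white libraries. The sum is therefore no measure of fibroblast content. Ribosomal RNA (Rn45s) made up 0.0575 to 0.0994% of cold brown, 0.110 to 0.597% of warm brown, 0.436 to 1.15% of cold beige, 4.32 to 5.72% of warm beige and 2.06 to 2.41% of warm white values. These marker sums and shares moved with the groups, and their part in the results for the uncoupling proteins was not tested.

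In the annotation of build GRCm38.p6, Ucp1 (uc009mjx.2) lay on chromosome 8 from 83290348 to 83298456. Ucp3 (uc009ina.1) and Ucp2 (uc009inb.3) were neighbours on the forward strand of chromosome 7, from 100472991 to 100486432 and from 100493337 to 100499629, with 6904 bases between the end of Ucp3 and the start of Ucp2. The 250 bases before the start that the RefSeq promoter table (GRCm38.p6, forward strand) gives for each gene are shown. Ucp1 and Ucp3 fell on warming in both depots, while Ucp2 rose in brown and fell in beige cells. Any link of these sequences to the changes was not tested. Capitals mark AGGTCA, a core site bound by nuclear receptors such as the PPARs, and TGACG, a core of the cAMP response element, searched on both strands (the reverse complement CGTCA is the second one read from the other strand). For Ucp2 the start of that table lies 21 bases after the one given above, so its window reaches into the annotated gene, and distances are counted from the table's start.
Ucp1, chr8:83290098-83290347: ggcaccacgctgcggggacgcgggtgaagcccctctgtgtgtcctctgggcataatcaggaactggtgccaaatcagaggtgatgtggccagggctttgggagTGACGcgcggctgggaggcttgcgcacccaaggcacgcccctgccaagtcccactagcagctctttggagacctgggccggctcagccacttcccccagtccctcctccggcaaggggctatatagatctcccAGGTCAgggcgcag
Ucp2, chr7:100493108-100493357: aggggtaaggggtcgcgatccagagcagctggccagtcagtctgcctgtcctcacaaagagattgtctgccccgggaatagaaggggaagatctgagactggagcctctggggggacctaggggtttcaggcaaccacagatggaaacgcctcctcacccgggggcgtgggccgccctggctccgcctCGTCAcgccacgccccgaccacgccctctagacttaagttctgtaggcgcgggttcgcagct
Ucp3, chr7:100472741-100472990: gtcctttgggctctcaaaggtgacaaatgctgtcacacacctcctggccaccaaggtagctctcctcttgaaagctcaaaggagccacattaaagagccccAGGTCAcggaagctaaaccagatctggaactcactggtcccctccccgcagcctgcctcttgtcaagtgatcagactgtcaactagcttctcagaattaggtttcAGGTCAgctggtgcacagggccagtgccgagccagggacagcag
The Ucp1 window held 1 AGGTCA beginning 14 bases before the start and 1 TGACG beginning 147 bases before it. The Ucp3 window held 2 AGGTCA, beginning 149 and 44 bases before the start, and no TGACG. In the Ucp2 window there was no AGGTCA, 1 TGACG on the reverse strand at 62 bases and 1 GGGCGG, the GC box, on the reverse strand at 79 bases. Of 32851 promoter windows of this length, 14.0% held AGGTCA, 17.8% TGACG and 32.7% GGGCGG. No window of the 3 genes held TATAA or CCAAT, which 22.8% and 33.8% of all windows held. The search took these exact letters only, so a variant such as the tatata shortly before AGGTCA in the Ucp1 window was not counted. The windows had 12 CpG pairs for Ucp1, 16 for Ucp2 and 3 for Ucp3, against a median of 6, and 33.5%, 25.4% and 71.0% of all windows had as many or more. A match describes letters only and says nothing on binding.

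Ucp1 was at 2288 to 5753 CPM in cold brown and cold beige libraries, at 331 to 588 CPM in warm brown libraries, at 1.30 to 2.89 CPM in warm beige libraries and under 1 CPM in warm white libraries. In cold brown libraries 1 to 5 the log2 CPM of Ucp1 was 12.43, 12.49, 11.92, 11.98 and 11.94, and in warm brown libraries 8.84, 9.20, 8.37, 9.07 and 8.73. In cold beige libraries it was 11.19, 11.16, 11.30 and 11.71, and in warm beige libraries 1.53, 0.38 and 1.17. All cold libraries were above all warm libraries of the same depot. In warm white libraries Ucp1 stood at -2.21, -5.59, -3.19, -1.11 and -1.99. The second of these was under -5, the level at or below which values were treated as undetected. None of the 5 groups overlapped another. How many of all rows separate their groups in this way was not counted, here or below. Their order by mean was cold brown (12.15 ± 0.28, SD; geometric mean 4551 CPM), cold beige (11.34 ± 0.25; 2592 CPM), warm brown (8.84 ± 0.32; 459 CPM), warm beige (1.03 ± 0.59; 2.04 CPM) and warm white (-2.82 ± 1.72; 0.142 CPM).

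Ucp2 followed another order, with its highest level in warm brown cells. Its log2 CPM was 5.09, 5.37, 5.91, 5.54 and 5.30 in cold brown libraries and 7.26, 7.63, 7.26, 7.33 and 7.19 in warm brown libraries. The lowest warm brown library was above the highest cold brown library. Cold beige libraries had 5.15, 5.58, 5.60 and 5.76 and warm beige libraries 3.65, 3.76 and 3.94, again without overlap, but with the warm libraries lower. Warm white libraries had 3.84, 3.05, 2.80, 3.31 and 2.72. By mean the order was warm brown (7.33 ± 0.17, SD; 161 CPM), cold beige (5.52 ± 0.26; 46.0 CPM), cold brown (5.44 ± 0.31; 43.5 CPM), warm beige (3.78 ± 0.15; 13.8 CPM) and warm white (3.14 ± 0.45; 8.84 CPM). Cold beige and cold brown overlapped, as did warm beige and warm white.

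Ucp3 was highest in both cold groups and fell in both depots. It had 8.68, 8.43, 8.60, 8.85 and 8.81 log2 CPM in cold brown libraries and 6.83, 6.41, 6.63, 6.68 and 6.83 in warm brown libraries. In cold beige libraries its values were 8.34, 8.50, 8.61 and 8.32, and in warm beige libraries 5.65, 5.07 and 5.82. Warm libraries were below cold libraries throughout. In warm white libraries it was at 5.57, 5.43, 5.03, 4.78 and 4.40. The means ran from cold brown (8.67 ± 0.17, SD; 408 CPM) over cold beige (8.44 ± 0.14; 348 CPM), warm brown (6.68 ± 0.17; 102 CPM) and warm beige (5.51 ± 0.39; 45.7 CPM) to warm white (5.04 ± 0.48; 32.9 CPM). As for Ucp2, the pairs cold brown with cold beige and warm beige with warm white overlapped. Unlike Ucp1, Ucp3 thus remained at 21.1 CPM or more in every library.

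**Figure D1:**
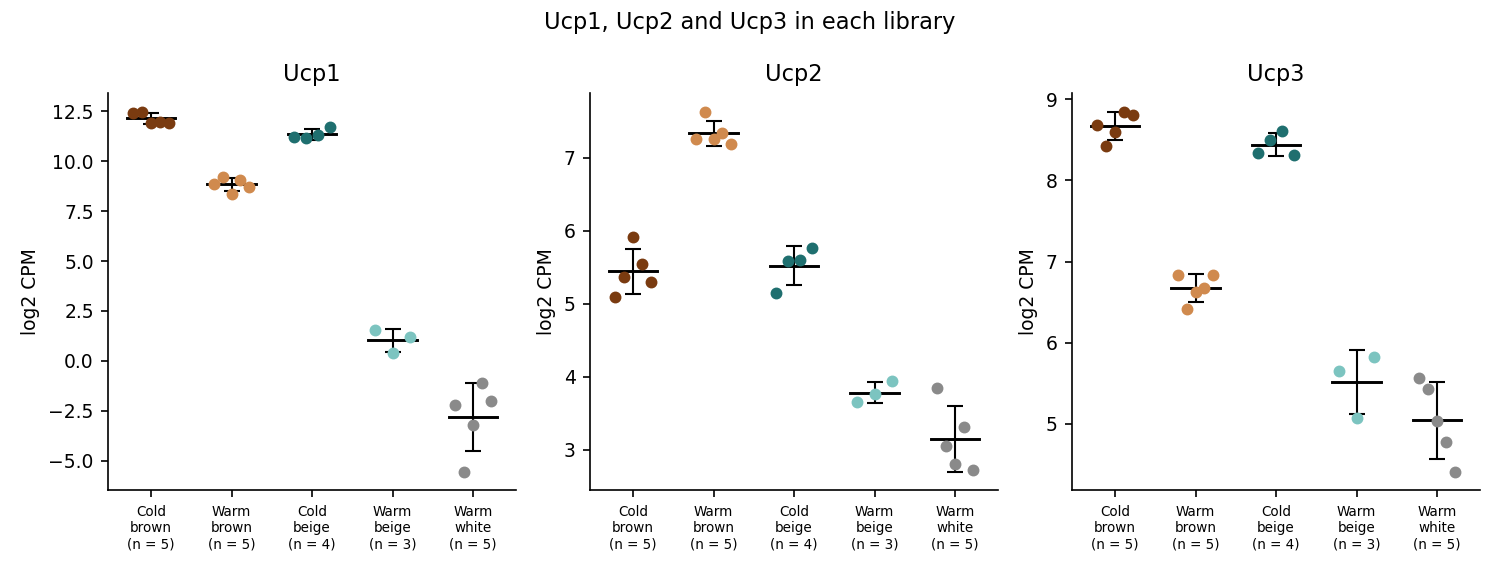
Log2 CPM of Ucp1, Ucp2 and Ucp3 (vertical axes, 1 panel a gene with its own scale) in each library of the 5 groups. Points are libraries, the wide line is the group mean and the bars are 1 SD. Ucp2 is highest in the warm brown group (7.19 to 7.63), where Ucp1 and Ucp3 are below both cold groups.

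The first comparison asks what happened in brown cells when cold-exposed mice were brought to thermoneutral housing. Ucp1 fell by 3.31 ± 0.49 log2 units (SE; limma, adjusted p = 3.13e-06), to 10.1% of its cold level (95% confidence interval 4.96 to 20.5%). SEs of Ucp1 are pooled over all 5 groups, whose SDs ran from 0.25 to 0.59 except 1.72 in warm white libraries. They are therefore wide for comparisons without white cells, as here, and narrow for those with them. Ucp3 fell by 2.00 ± 0.17 (limma, adjusted p = 5.62e-10), to 25.0% (19.6 to 31.9%). Ucp2 rose by 1.89 ± 0.17 (limma, adjusted p = 2.16e-09), 3.71-fold (2.89 to 4.77). Each was the direction of all 5 warm against all 5 cold libraries, a separation that was not counted over all rows. Calls were common in this comparison: 71.3% of all 11603 rows passed an adjusted p of 0.05, 41.2% higher and 30.1% lower, and the median row moved by 0.13. Of the calls 57.7% were higher as deposited, 49.8% after quantile normalization and 67.6% with a common total. By size, the fall of Ucp1 ranked 94 among all falls and that of Ucp3 250, and the rise of Ucp2 ranked 697 among all rises. In bulk samples such as these, fewer cells of a type and less RNA per cell cannot be told apart.

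Skeletal muscle, a main site of Ucp3, and macrophages, which express Ucp2, could both contribute RNA, so their markers were read in the same libraries. Summed skeletal muscle markers (12 of 16 measured) went from 192 to 284 CPM in cold brown libraries to 34.6 to 56.5 in warm brown ones. Most of that was myoglobin (Mb), which brown fat also expresses, at a mean log2 CPM of 7.66 and 4.83. Meanwhile 9 of the 12 markers were under 1 CPM in every cold brown library, and 1 of these was at or below -5 log2 CPM throughout. Summed macrophage markers (9 of 14 measured) were 13.5 to 21.7 CPM in cold brown and 20.2 to 30.6 in warm brown libraries, groups that overlapped, and lymphocyte markers (2 of 12) 0.883 to 1.74 and 1.95 to 4.24. Their part in the changes of Ucp3 and Ucp2 was not tested.

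The same question was asked of beige cells, in which all 3 genes fell. Ucp1 fell by 10.31 ± 0.60 log2 units (SE; limma, adjusted p = 7.13e-13), which left 0.0786% of its cold level (95% interval 0.0334 to 0.185%). Ucp3 fell by 2.93 ± 0.20 (limma, adjusted p = 1.72e-11), to 13.1% (9.79 to 17.6%). Ucp2 fell by 1.74 ± 0.21 (limma, adjusted p = 1.46e-07), to 30.0% (22.1 to 40.5%). In this comparison 72.9% of all rows passed, 36% higher and 36.9% lower, with a median of 0.03. With library totals taken without the 20 most abundant rows, 60.8% of the calls were higher, against 49.4%. By size the fall of Ucp1 ranked 4 among all falls, that of Ucp3 268 and that of Ucp2 866. In CPM, cold beige libraries held 2288 to 3350 of Ucp1.

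The same markers of other cells were read in beige libraries. Macrophage markers went from 64.6 to 101 summed CPM in cold beige to 167 to 190 in warm beige libraries, and lymphocyte markers from 7.88 to 15.2 to 10.2 to 29.5. Skeletal muscle markers were at 27.8 to 78.5 in cold beige libraries and at 408, 395 and 60.5 in warm beige libraries 1, 2 and 3. Ucp3 in the same warm beige libraries was at 5.65, 5.07 and 5.82 log2 CPM. In the warm white group library 2 had the highest muscle sum (825) and a Ucp3 of 5.43, in a group range of 4.40 to 5.57. The part of these cells in the values was not tested.

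Warming changed each uncoupling protein differently in the 2 depots, by the test of the difference itself. The fall of Ucp1 was larger in beige than in brown cells, with a beige minus brown difference of -7.00 ± 0.77 log2 units (SE; limma, adjusted p = 1.59e-07), and so was that of Ucp3 (-0.93 ± 0.27; limma, adjusted p = 0.00613). For Ucp2, which moved in opposite directions, the difference was -3.63 ± 0.27 (limma, adjusted p = 4.68e-10). In all, 47.2% of rows passed this test, 14.8% with the beige effect higher and 32.4% with it lower, and the median row was at -0.17. The split between higher and lower depended on the scaling: 31.3% of calls were higher as deposited, 49.7% after quantile normalization and 45.4% after median-of-ratios scaling. Across 4 scalings the median row of a warming comparison moved by at most 0.22 log2 units, and the warming effects of Ucp1, Ucp2 and Ucp3 kept their directions. The deposited libraries fell into 2 sets by the values of undetected rows, described with the processing. In sets 1 and 2 the brown warming effect was -3.44 and -3.22 for Ucp1, 2.21 and 1.68 for Ucp2 and -1.94 and -2.04 for Ucp3. The beige warming effect was -10.28 in both for Ucp1, -1.51 and -1.89 for Ucp2 and -2.51 and -3.19 for Ucp3. Within set 1, where each beige effect rests on 2 cold and 1 warm library, the difference for Ucp3 was -0.58 (limma, adjusted p = 0.504). Within set 2 it was -1.16.

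**Figure D2:**
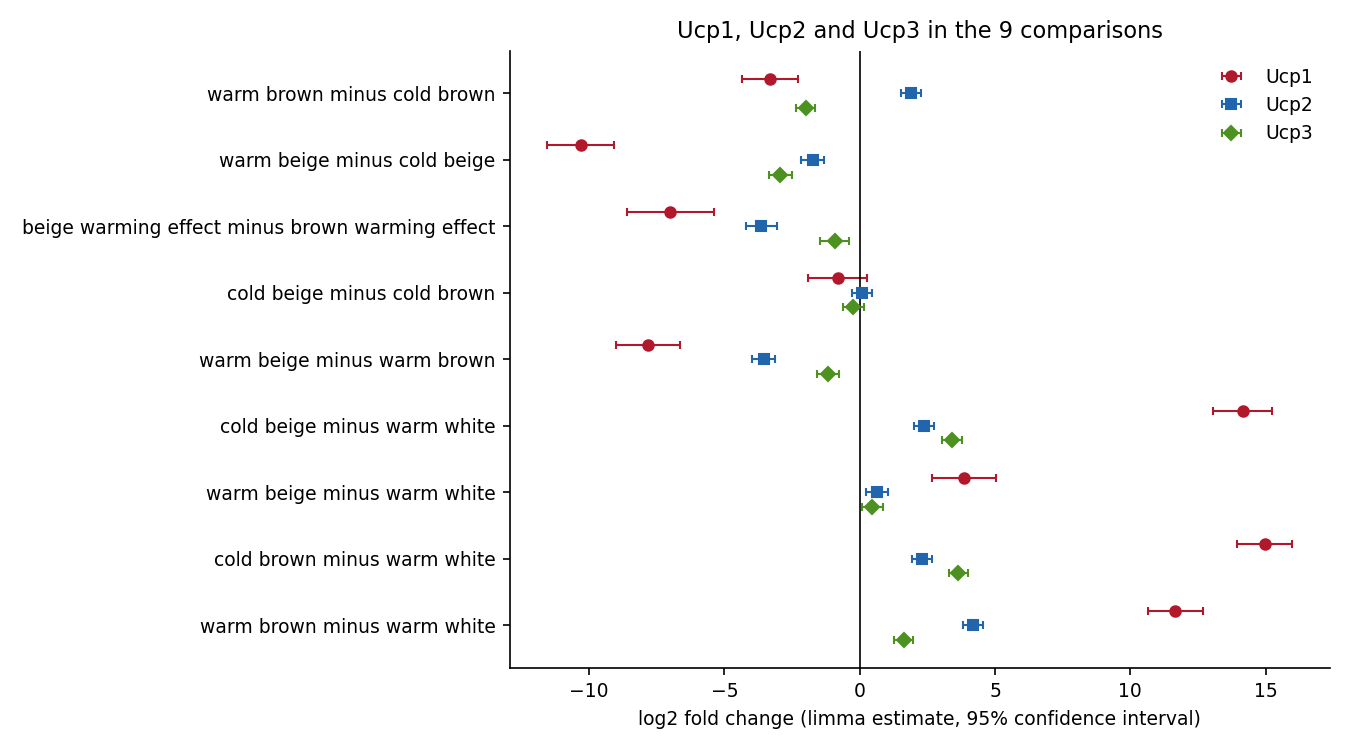
Estimated log2 fold changes (horizontal axis) of Ucp1, Ucp2 and Ucp3 in the 9 comparisons, with 95% confidence intervals from limma. Ucp2 lies to the right of 0 in brown cells on warming (1.89) and to the left in beige cells (-1.74), while Ucp1 and Ucp3 lie to the left in both.

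Ratios between the genes within a library showed how unequal the changes were, free of any scaling of that library. Gene length cancels from a change of such a ratio but not from its level, so levels of different genes were not compared. In brown cells the log2 difference of Ucp1 and Ucp2 went from a mean of 6.71 ± 0.53 (SD, cold) to 1.51 ± 0.24 (warm), a change of -5.20. That of Ucp3 and Ucp2 changed by -3.89, from 3.23 ± 0.37 to -0.66 ± 0.34. Ucp1 fell more than Ucp3 as well, with a change of -1.31, from 3.48 ± 0.41 to 2.17 ± 0.42. In none of these did warm and cold libraries overlap, and each had an exact two-sided permutation p of 0.00794, the smallest that 5 against 5 libraries allow, and 0.0159 after Benjamini-Hochberg adjustment over 6 ratio tests.

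Among beige libraries the log2 difference of Ucp1 and Ucp3 changed by -7.38, from 2.90 ± 0.34 (SD, cold) to -4.49 ± 0.32 (warm). That of Ucp1 and Ucp2 changed by -8.57, from 5.82 ± 0.21 to -2.76 ± 0.63. The Ucp3 to Ucp2 difference changed by -1.19, from 2.92 ± 0.26 to 1.73 ± 0.37. Warm and cold libraries were again apart in each. The exact two-sided permutation p, formed from the smaller one-sided p, was 0.0571 for each (adjusted 0.0571). That is the smallest value this form of the test gives for 4 against 3 libraries, so none could pass 0.05 here.

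**Figure D3:**
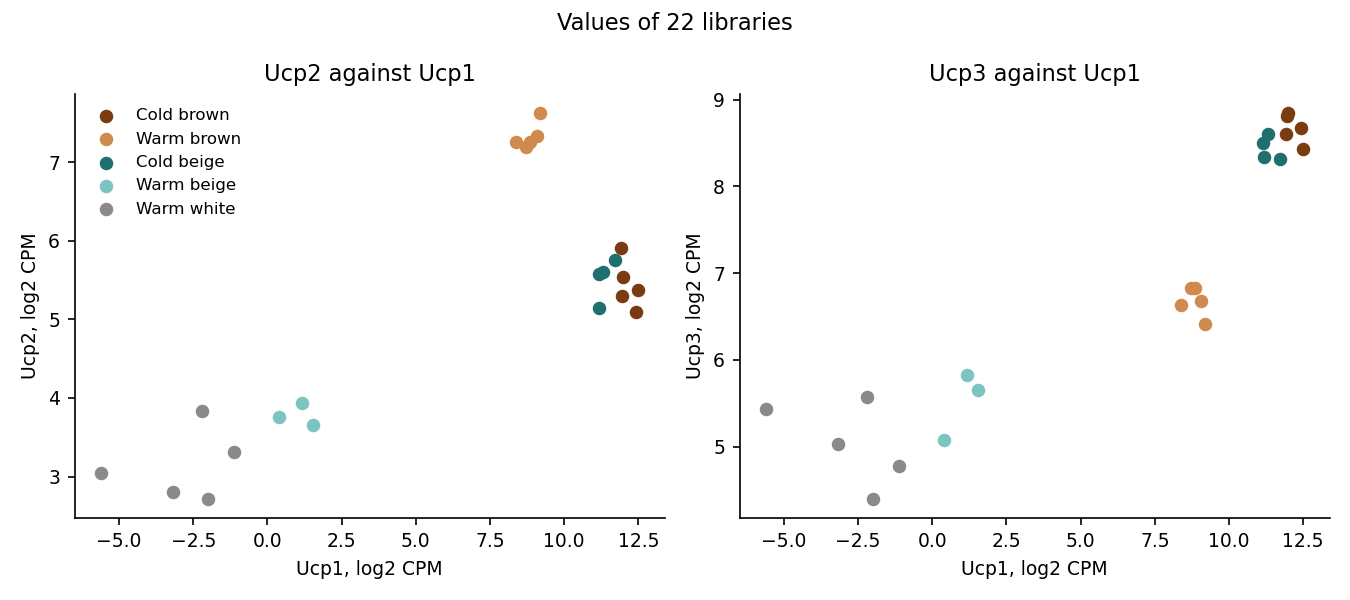
Log2 CPM of Ucp2 (left) and Ucp3 (right) against that of Ucp1 in the same library, for all 22 libraries, coloured by group. The 5 warm brown libraries stand at Ucp1 values of 8.37 to 9.20 and lie above all others in Ucp2, while in Ucp3 they lie between the cold and the warm inguinal libraries.

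In the cold, Ucp2 and Ucp3 libraries of brown and beige cells overlapped, and Ucp1 was lower in every cold beige than in every cold brown library. Cold beige cells had 57.0% of the Ucp1 of cold brown cells (95% interval 26.9 to 121%), a difference of -0.81 ± 0.52 log2 units (SE; limma, adjusted p = 0.183). Ucp2 was at 106% (81.1 to 138%; 0.08 ± 0.18; limma, adjusted p = 0.723) and Ucp3 at 85.2% (65.8 to 110%; -0.23 ± 0.18; limma, adjusted p = 0.270). None passed, where 61.9% of all rows did (a p above the threshold does not show that the groups are alike). The Ucp1 call turned on how the spread was estimated. The 5 groups share 1 estimate, and warm white libraries had an SD of 1.72 in Ucp1 against 0.28 and 0.25 in the cold groups. From the cold groups alone the adjusted p was 0.000674, and with 1 CPM added before the logarithm 0.000258, at the same difference of -0.81. With a block of temperature and library number Ucp1 and Ucp3 both passed, at -0.73 (limma, adjusted p = 0.0152) and -0.29 (adjusted p = 0.0289).

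After warming, the depots stood far apart. Ucp1 was lower in warm beige than in warm brown cells (-7.82 ± 0.57 log2 units, SE; limma, adjusted p = 3.88e-11), Ucp2 differed by -3.55 ± 0.20 (adjusted p = 5.40e-13) and Ucp3 by -1.16 ± 0.20 (adjusted p = 1.34e-05). In this comparison 75.5% of all rows passed. Within set 1, with 1 warm beige and 2 warm brown libraries, the Ucp3 difference was -0.80 (limma, adjusted p = 0.120).

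Comparison with white cells asks how far warmed beige cells went toward cells of the same depot that had never been in the cold. Since the line of each library is not given, beige and white libraries may also differ in which cells were tagged. Housing and tagged cells cannot be told apart here. Set against warm white cells, cold beige cells had more of each gene, by 14.16 ± 0.52 log2 units for Ucp1 (SE; limma, adjusted p = 1.37e-16), 2.38 ± 0.18 for Ucp2 (adjusted p = 6.92e-11) and 3.40 ± 0.18 for Ucp3 (adjusted p = 7.54e-14), where 75.2% of rows passed. The Ucp1 excess was the largest of all rows. Its size rests on white values under 1 CPM (0.0208 to 0.463), and with 1 CPM added to every value it was 11.07. On the log2 scale, warming took Ucp1 72.8% of the way from the cold beige to the warm white mean, Ucp2 73.1% and Ucp3 86.1%. The Ucp1 share depended on the constant added: it was 87.8% with 1 CPM and 94.98% with 5 CPM added, against 74.2% and 77.1% for Ucp2 and 86.4% and 87.1% for Ucp3.

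What remained above white after warming was small in CPM. Warm beige cells had 3.84 ± 0.57 log2 units more Ucp1 than warm white cells (SE; limma, adjusted p = 1.50e-05), with all 3 warm beige libraries (1.30 to 2.89 CPM) above all 5 white ones. The SE, pooled over the 5 groups, is narrow for this difference, since the warm white SD of Ucp1 was 1.72. This excess was 1.35 with 1 CPM added and 0.45 with 5 CPM added. Ucp2 was higher by 0.64 ± 0.20 (limma, adjusted p = 0.0148), with overlapping libraries, and this call was lost without warm beige library 3 (0.56, adjusted p = 0.0648) or from these 2 groups alone (adjusted p = 0.0846). Ucp3 was higher by 0.47 ± 0.20, which did not pass (limma, adjusted p = 0.0597), but did without warm beige library 2 (0.69, adjusted p = 0.0133), warm white library 1 (0.60, adjusted p = 0.0134) or warm white library 2 (0.57, adjusted p = 0.0265). Of all rows, 39.4% passed. Macrophage markers summed to 114 to 167 CPM in white libraries, and skeletal muscle markers to 20.1 to 825, the highest in library 2. Their part in these differences was not tested.

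Brown cells stayed above white cells in all 3 genes at both temperatures. Cold brown cells exceeded warm white cells by 14.97 ± 0.49 log2 units in Ucp1 (SE; limma, adjusted p = 5.30e-18), 2.30 ± 0.17 in Ucp2 (adjusted p = 2.19e-11) and 3.63 ± 0.17 in Ucp3 (adjusted p = 2.86e-15), with 85.6% of rows called. Warm brown cells exceeded them by 11.66 ± 0.49 in Ucp1 (limma, adjusted p = 1.09e-15), 4.19 ± 0.17 in Ucp2 (adjusted p = 8.41e-16) and 1.63 ± 0.17 in Ucp3 (adjusted p = 8.42e-09), with 79% called. With 1 CPM added, the Ucp1 differences were 11.89 and 8.58. The 4 comparisons with white cells share the same 5 white libraries, which were from mice with another housing history and another depot than the brown ones. The line may differ as well. In all 4 the pooled SE of Ucp1 understates the spread of the white libraries (SD 1.72).

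The genes next to the uncoupling proteins on the chromosome did not all move as they did. Ucp2 and Ucp3, with 20346 bases between their starts, moved in opposite directions in brown cells. C2cd3, a centriole gene that ends 2832 bases before Ucp3, changed by -0.52 ± 0.09 log2 units (SE) in brown cells (limma, adjusted p = 1.78e-05) and by -0.23 ± 0.11 in beige cells (adjusted p = 0.0621, but 0.0124 without cold beige library 1 and 0.0419 without library 2). Coa4, an assembly factor of cytochrome oxidase and the next measured gene after Ucp2, fell in brown (-1.59 ± 0.15) and in beige cells (-1.41 ± 0.18; limma, adjusted p = 4.22e-09 and 4.86e-07), so that the 2 measured genes on either side of Ucp2 fell in brown cells where it rose. Mrpl48 and Rab6a, which follow, overlap each other in the annotation, so their reads may not separate. At the Ucp1 locus, Tbc1d9, 17408 bases upstream, fell in brown (-1.54 ± 0.13) and in beige cells (-2.21 ± 0.16; limma, adjusted p = 4.44e-10 and 2.01e-11). Elmod2, 14176 bases downstream, rose in brown cells by 0.51 ± 0.13 (limma, adjusted p = 0.00171) and had -0.43 ± 0.16 in beige cells (adjusted p = 0.0195). That beige value did not pass under 3 of the 4 other scalings, nor without cold beige library 1 or 3 or warm beige library 1 or 2 (adjusted p = 0.0669 to 0.0938).

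**Figure D4:**
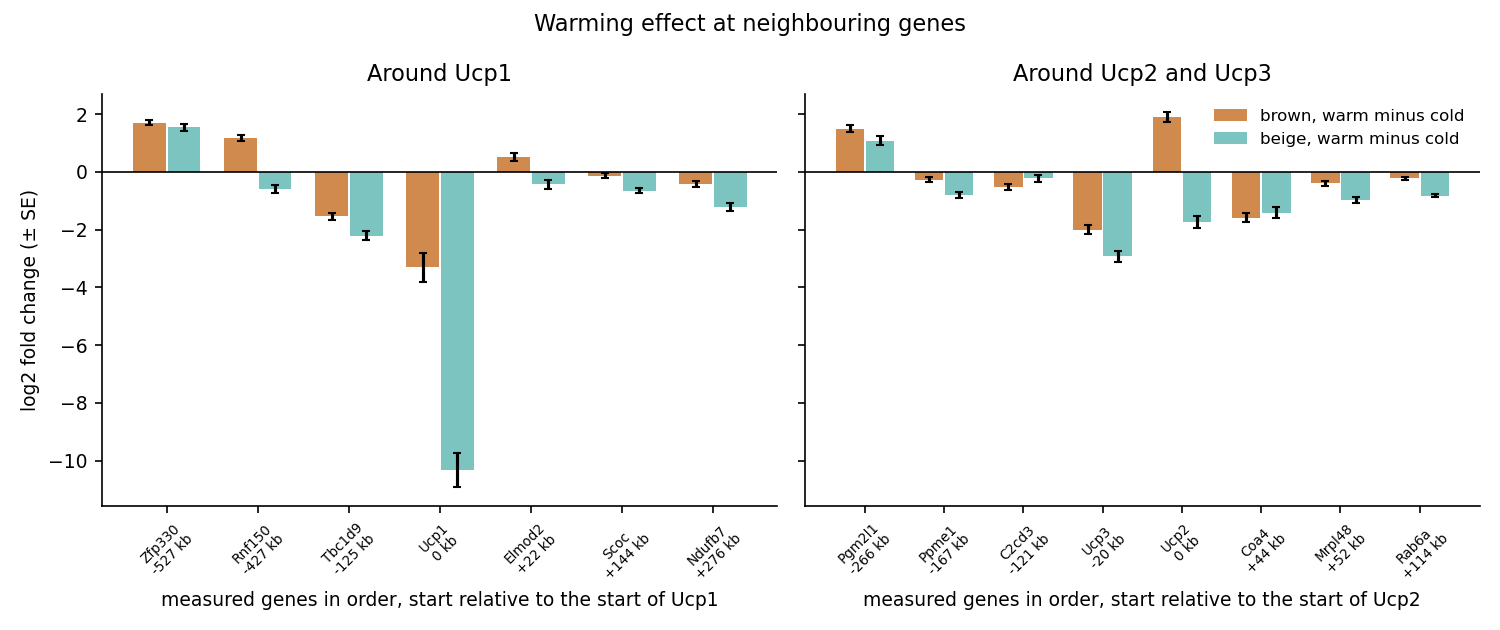
Log2 fold change on warming (vertical axis, bars from 0 with 1 SE) in brown and beige cells for the measured genes around Ucp1 (left) and around Ucp3 and Ucp2 (right), in chromosome order and named with the distance of their start from that of Ucp1 or Ucp2. Ucp2 is the only gene of its panel besides Pgm2l1 with a brown bar above 0 (1.89 and 1.49), and in beige cells only Pgm2l1 is above 0 there.

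Of 8 listed relatives from the same mitochondrial carrier family 6 were measured. In brown cells 5 of these passed higher and 1 lower, beside 41.2% and 30.1% of all rows, and in beige cells 2 higher and 3 lower, beside 36% and 36.9%. Slc25a30, also called kidney mitochondrial carrier protein, rose by 1.09 ± 0.13 log2 units (SE) in brown and by 0.85 ± 0.16 in beige cells. The dicarboxylate carrier Slc25a10 rose by 1.15 ± 0.21 in brown cells and had -0.45 ± 0.25 in beige cells (limma, adjusted p = 0.114). 3 smaller brown values were not past the threshold under median-of-ratios scaling: Slc25a14, a brain uncoupling protein relative, at 0.43 ± 0.19, the ADP/ATP carrier Slc25a4 at 0.27 ± 0.10 and the oxoglutarate carrier Slc25a11 at 0.17 ± 0.06. Slc25a14 was at -0.20 after quantile normalization and was not past it without cold brown library 1, 2, 3 or 4 or warm brown library 2, 3 or 5 (adjusted p = 0.0530 to 0.142). Slc25a4 was not past it without cold brown library 5 (adjusted p = 0.0534). The other ADP/ATP carrier, Slc25a5, was at -0.41 ± 0.17 and was not past it without cold brown library 1 or 2 or warm brown library 3 or 5 (adjusted p = 0.0638 to 0.0767), nor after quantile normalization (0.112), with totals without the 20 most abundant rows (0.111) or with a common total (0.145). In beige cells Slc25a11 (-1.64 ± 0.07), Slc25a5 (-1.50 ± 0.20) and Slc25a4 (-1.02 ± 0.12) fell, while Slc25a14 rose by 1.23 ± 0.23. The list's median was 0.35 in brown and -0.74 in beige cells, against 0.13 and 0.03 for all rows. Slc25a4 and Slc25a5 are near-identical in parts of their sequence, and counting could split their reads.

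Genes that act on Ucp1 transcription were read in lists, whose counts stand beside 41.2% higher and 30.1% lower of all rows in brown and 36% and 36.9% in beige cells. Of 25 measured activators (27 listed), 10 rose and 6 fell in brown cells and 7 rose and 13 fell in beige cells, with medians of 0.15 and -0.31. In brown cells these shares (40% and 24%) were close to those of all rows. Among those that fell were Esrra, a receptor that drives mitochondrial genes, in brown cells (-0.78 ± 0.12 log2 units, SE), and in beige cells the fatty acid receptor Ppara (-3.48 ± 0.17) and the coactivator Ppargc1b (-2.89 ± 0.20). In brown cells the CREB coactivator Crtc3 rose by 1.22 ± 0.12 and the thyroid hormone receptor Thra by 0.87 ± 0.08. Of 11 measured repressors 8 rose and 2 fell in brown cells and 6 rose and 2 fell in beige cells, with medians of 0.45 and 0.34. Rbl1 (p107), a pocket protein, rose by 2.88 ± 0.19 and 2.37 ± 0.23, and the corepressor Nrip1 (RIP140) by 0.97 ± 0.14 and 1.53 ± 0.17. The oxysterol receptor Nr1h3 fell in both (-1.90 ± 0.10 and -1.45 ± 0.12).

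Adrenergic genes carry the signal of sympathetic nerves. Of 19 measured (20 listed), 8 rose and 6 fell in brown cells and 5 rose and 9 fell in beige cells, with medians of -0.03 and -0.41. The brown shares (42.1% and 31.6%) were close to the 41.2% and 30.1% of all rows, and the beige ones (26.3% and 47.4%) stand beside 36% and 36.9%. Without warm beige library 2, only 3 rose in beige cells. The adenylyl cyclase Adcy5 rose by 6.31 ± 0.18 log2 units (SE) in brown and 2.71 ± 0.22 in beige cells. Another cyclase, Adcy3, fell in both (-1.94 ± 0.10 and -2.77 ± 0.12).

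Genes of fatty acid release, uptake and transport into mitochondria, the list of fatty acid supply, fell in larger numbers. Of 20 measured, 12 fell and 2 rose in brown cells and 16 fell and 1 rose in beige cells (medians -0.51 and -0.91). The lipase Mgll (-1.80 ± 0.07 log2 units, SE) and the lipolysis coactivator Abhd5 (-1.74 ± 0.10) fell in brown cells. In beige cells the carnitine palmitoyltransferase Cpt1b (-5.41 ± 0.23) and the carnitine carrier Slc25a20 (-3.52 ± 0.10) fell. PPAR-responsive fatty acid genes, some of them on the former list as well, had 12 of 17 measured (18 listed) lower and 3 higher in brown and 14 lower and 3 higher in beige cells (medians -0.72 and -2.40). Thermogenic companions of Ucp1 had 10 of 14 (19 listed) lower and 1 higher in brown and 11 lower and 1 higher in beige cells (medians -1.07 and -4.03). The share of all rows called lower was 30.1% and 36.9%.

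Heat-producing cycles that do not use UCP1 were counted in the same way. Of 11 measured (17 listed) 5 rose and 4 fell in brown cells and 4 rose and 7 fell in beige cells (medians 0.84 and -1.58). The brown shares were 45.5% and 36.4%, near those of all rows (41.2% and 30.1%), and the beige ones 36.4% and 63.6% (36% and 36.9% of all rows). Glycerol kinase, Gk, fell in brown and beige cells (-3.33 ± 0.11 and -5.82 ± 0.13 log2 units, SE), as did Alpl, a phosphatase of the creatine cycle (-4.72 ± 0.30 and -4.09 ± 0.36). Gamt, which makes creatine, rose by 3.04 ± 0.23 in brown cells. Of 15 genes of reactive oxygen and glutamine handling, the setting in which Ucp2 is often studied, 6 rose and 7 fell in brown cells and 3 rose and 11 fell in beige cells (medians -0.10 and -0.85). Their shares were 40% and 46.7% in brown and 20% and 73.3% in beige cells, to be read against the same shares of all rows. Without warm beige library 2, only 1 rose in beige cells. In brown cells, where Ucp2 rose, the transhydrogenase Nnt was at 1.50 ± 0.28, not past the threshold after quantile normalization, and the glutaredoxin Glrx2 fell (-1.06 ± 0.10). In beige cells the peroxidase Prdx3 (-2.55 ± 0.08) and the superoxide dismutase Sod2 (-1.79 ± 0.10) fell.

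**Figure D5:**
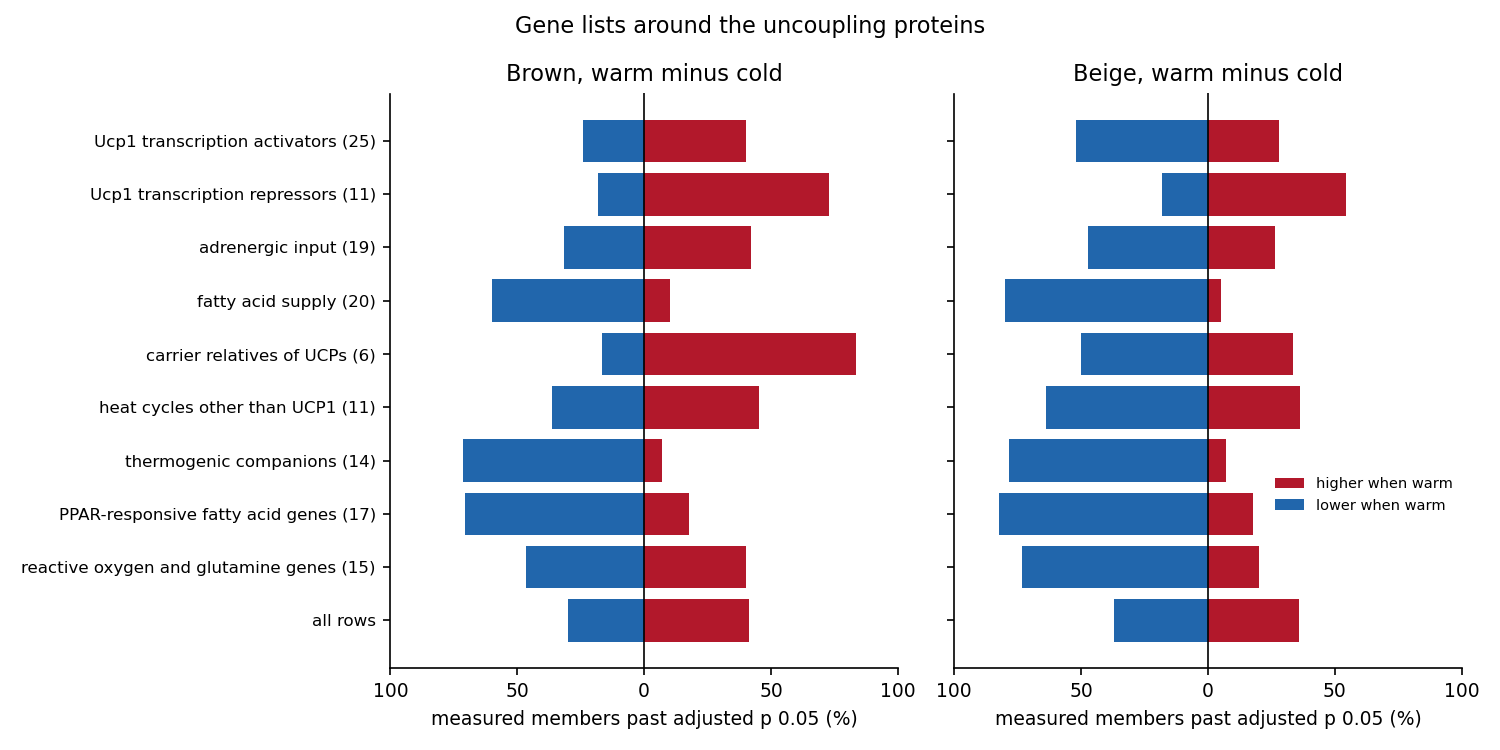
Share of measured list members (number in brackets) that were higher (right) or lower (left) in warm than in cold libraries at an adjusted p of 0.05, in brown and in beige cells, with the share over all rows at the bottom (41.2% and 30.1% in brown, 36% and 36.9% in beige cells). The lists of fatty acid supply, PPAR-responsive genes and thermogenic companions lie mostly to the left in both.

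The pattern of each gene over the 22 libraries was set beside that of all rows above -5 log2 units throughout. Pearson's r is given as a description, since libraries of 1 group share their treatment. Ucp1 and Ucp3 had an r of 0.92, Ucp1 and Ucp2 of 0.76 and Ucp2 and Ucp3 of 0.53. Most like Ucp1 were Dock8 (0.992), Slc4a4 (0.990), Ankrd28 (0.988), Decr2 (0.987) and Atp5j2 (0.987), and among the most opposite were Os9 (-0.988) and Wrnip1 (-0.984). Dock8 had group means of 7.91, 6.56, 7.49, 3.94 and 2.79 log2 CPM (brown cold and warm, beige cold and warm, white), lowest in white and highest in cold brown cells as with Ucp1, over a narrower range.

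Most like Ucp2 were the collagen gene Col12a1 (0.980), 6430573F11Rik (0.979), Mef2a (0.976), Ccbl1 (0.975) and Ncoa7 (0.971), and most opposite Por (-0.973), Wscd2 (-0.972) and Mmd (-0.970). Col12a1 had means of 4.49, 7.19, 3.98, 1.63 and 0.11 log2 CPM in the same order of groups and, as with Ucp2, its highest level in warm brown libraries. For Ucp3 these were Mtor (0.983), Hacl1 (0.983), Vwa8 (0.982), Slc25a34 (0.981) and Kcmf1 (0.980), with Lix1l (-0.986), Oat (-0.984) and Fam102b (-0.982) most opposite. Slc25a34, another mitochondrial carrier, had means of 8.73, 3.23, 8.72, 1.88 and 0.19 log2 CPM.

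The spread within groups was wider than in rows of like mean level. Within-group SDs, pooled over the 5 groups, were 0.89 log2 units for Ucp1, 0.30 for Ucp2 and 0.30 for Ucp3, against medians of 0.14, 0.16 and 0.13 over 1865, 2134 and 1419 rows within 0.5 log2 units of the same mean. For Ucp1 most of this lay in warm white libraries (SD 1.72), with values under 1 CPM. The SD of the 5 group means was 6.65 for Ucp1, rank 2 of 11603, and 1.65 for both Ucp2 (rank 1246) and Ucp3 (rank 1235).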

How the data were processed

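The authors deposited log2 CPM (reads scaled to library size, on a log2 scale) of 11603 rows in 22 TRAP libraries. The submitters' processing notes list the tools edgeR, featureCounts, HISAT2 and Picard, and build mm10. Versions, the constant added before the logarithm and any removal of a batch effect are not given in the sources used here. Undetected rows take 2 values per depot, which sort the libraries into 2 sets (set 1 holds 2 libraries of each brown group and of cold beige, 1 of warm beige and 3 of warm white). Across depots they were joined so that the largest difference between sets within groups was smaller. It was 0.005 log2 units over all rows, against 1.90 joined the other way. So small a difference is what remains after removal of a set effect from each row, so the deposited values appear adjusted. The degrees of freedom of the fit do not count such a removal, so SEs and p-values may be too small. The ratio tests took no account of it. The table was used as deposited. The depth is unknown, so values carry no counting error.

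Group means were compared with limma 3.58.1 (trend, 17 residual degrees of freedom, R 4.3.3) in 9 comparisons over all rows that reached 1 CPM in 3 libraries, which all 11603 did, and p-values were adjusted by Benjamini and Hochberg over them at a threshold of 0.05. The fit was tested on simulated data with the same spread in all groups and few rows changed, in 1 group. That does not test it for unequal spread, as in Ucp1, or for many changed rows. Ratios were tested with an exact permutation test (scipy 1.17.1). Of 9 pathway lists, up to 4 genes with the largest change among those called in a warming comparison were eligible to be named, all measured carrier relatives, the 3 nearest measured genes on each side, and the 5 most like and 3 most opposite rows, of which some are not reported here. The members and lists were chosen with earlier results of these data known. Deviations of warm brown and warm beige libraries with the same library number correlated in all 3 pairs (0.100 to 0.241), a pairing taken from the numbers in the library descriptions, and a block on it was an alternative. Other alternatives were scalings, constants, filters, designs, batch terms and leaving out each library. Marker lists for other cells were summed as CPM.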

Additional observations from a re-analysis of the deposited data

Results flagged for a closer look

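The warming effect differed between beige and brown cells for each of the 3 uncoupling proteins, by the test of the difference itself (limma, adjusted p over 11603 rows). The beige effect was below the brown one by -7.00 log2 units for Ucp1 (adjusted p = 1.59e-07). For Ucp2 the difference was -3.63 (adjusted p = 4.68e-10), and all warm libraries lay above the cold ones in brown cells and below them in beige cells. How many of all rows separate in this way was not counted. For Ucp3 the difference was -0.93 (adjusted p = 0.00613), and -0.58 within set 1. Of all rows, 47.2% passed this test, 32.4% with the beige effect lower. No library stood apart from its group in any of the 3 genes by Dixon's criterion, which was applied to the groups of 4 or 5.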

How the results depend on the processing

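Of the values of Ucp1, Ucp2 and Ucp3 under other settings, 399 kept direction and side of the threshold, 10 came to pass it, 4 no longer passed it and 1 changed sign. When single libraries were left out these numbers were 259, 3, 1 and 1. The other settings include a term for the 2 sets of libraries, which could hardly move an effect in the values as deposited. Its kept values therefore say nothing on a set effect. The ratio changes all kept their direction, and those of brown cells their side of the threshold. Most changes lay in comparisons of similar groups. For Ucp1 in cold beige against cold brown cells the difference passed with 1 CPM added (-0.81), with 5 CPM added (-0.81, adjusted p = 4.91e-05), after quantile normalization (-1.01, adjusted p = 0.0121) and from these groups alone (-0.81). Ucp2 there was -0.013 after median-of-ratios scaling and -0.0075 to 0.20 with single libraries left out, negative without cold brown library 1. Ucp3 there passed from these groups alone (-0.23, adjusted p = 0.0451). Within set 1, the smaller set, Ucp3 did not pass in the difference of warming effects (-0.58) or in warm beige against warm brown (-0.80), nor Ucp2 in warm beige against warm white (0.74, adjusted p = 0.232). Ucp2 in that comparison did not pass from these groups alone (0.64), and was 0.53 to 0.81 with single libraries left out. Ucp3 there passed after quantile normalization (0.55, adjusted p = 0.0299), without the 20 most abundant rows in the totals (0.57, adjusted p = 0.0318) and within set 2 (0.46, adjusted p = 0.0479), and was 0.31 to 0.69 with single libraries left out. Rows called within set 1, where fewer libraries were tested, numbered 5050 against 8274 for brown warming, 5255 against 8453 for beige warming, 1969 against 5477 for their difference, 3710 against 7184 for cold beige against cold brown and 1304 against 4572 for warm beige against warm white, the last 3016 from its groups alone. The causes were not tested.

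Title numbers gave no clear pairing, which does not show that the samples were unpaired. Over 39 pairs deviations correlated at -0.27 to 0.34 (median -0.032), and 9 pairs were above 0.1. By library number 8 of 39 were, 6 of them between depots at one temperature: all 3 warm and 3 of 4 cold pairs of brown and beige libraries (0.0853 to 0.373 in the cold). With the replicate block by title number the brown warming effects were -3.31 for Ucp1 and 1.89 for Ucp2, the beige ones of Ucp1, Ucp2 and Ucp3 -10.13, -1.71 and -2.95 and their differences -6.82, -3.60 and -0.96. With a replicate block of temperature and library number, warm beige minus warm brown was -7.70, -3.48 and -1.20, and Ucp1 (-0.73, adjusted p = 0.0152) and Ucp3 (-0.29, adjusted p = 0.0289) passed in cold beige against cold brown cells. Under blocks no other call of the 3 genes changed.

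Of other genes eligible to be named, 5 values changed sign: Slc25a14 in brown warming was -0.20 and Slc25a30 in the difference of warming effects 0.15 after quantile normalization, Slc25a10 in beige warming 0.030 within set 1, Elovl3 in the difference 0.32 with 5 CPM added and Scoc in brown warming 0.024 with a common total. Of counts of list members, 755 stayed within 1.5 times and 73 did not under other settings, and 582 and 30 with single libraries left out. Carrier relatives called higher in brown cells numbered 2 instead of 5 under median-of-ratios scaling. Without depth, levels under 1 CPM, as for Ucp1 in white cells, cannot be given a counting error.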
